A study of Mus musculus with 6 samples.

Results

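The postsynaptic scaffold genes described here are the 10 rows Shank1, Shank2, Shank3, Dlg1, Dlg2, Dlg3, Dlg4, Dlgap1, Dlgap4 and Homer1 of a table of 23420 gene rows, together with the splice junctions that lie inside them. They were chosen by gene symbol, and all 10 passed the filter on low counts, which 16067 genes passed in all. The libraries hold ribosome-bound RNA that was pulled down from Purkinje neurons of the mouse cerebellum, in C57BL/6 animals at 4 weeks of age, 1 cerebellum per pull-down. The cKO group (3 libraries) carried Pcp2-BacTRAP, Pcp2-Cre and the Rbm17 alleles f/-, a floxed and a null allele. The control group (3 libraries) carried Pcp2-BacTRAP and Rbm17 f/+, with no Cre. In both groups the tagged ribosomal protein was driven by Pcp2, a gene of Purkinje neurons. Rbm17 encodes a splicing factor that takes part in the choice of 3' splice sites, and the series asks how transcripts and junctions differ after its loss from these neurons. Since only the cKO group had Cre and the null allele, the groups differ by their whole genotype.

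Under an excitatory synapse the members build a layered protein scaffold. Dlg proteins (PSD-95 and its relatives) sit beneath the membrane and hold glutamate receptors and adhesion proteins through PDZ domains. Dlgap proteins, also called SAPAP or GKAP, bind the guanylate-kinase-like domain of Dlg proteins on one side and the PDZ domain of Shank proteins on the other. Shank proteins form the deeper lattice and bind Homer, which in turn binds metabotropic glutamate receptors and the IP3 receptor of the calcium store. In Purkinje neurons, metabotropic glutamate signalling through the IP3 receptor is a main route of postsynaptic calcium release.

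Rbm17 itself had 25.7, 25.6 and 26.3 CPM (counts per 1000000 counts, on TMM-scaled library sizes) in cKO libraries, against 41.2, 42.5 and 41.3 CPM in control libraries, which gave a log2 fold change of -0.69 (SE 0.089) and an adjusted p of 0.0016 in edgeR's quasi-likelihood test. The libraries held 140110897 to 160571518 reads counted to genes and 73457422 to 83976095 reads over splice junctions. Among 12 Purkinje markers, 7 fell in cKO and none rose, with a median log2 fold change of -0.62, and their summed level was 18532 to 21551 CPM in cKO libraries and 30938 to 41322 CPM in control libraries. Among 10 microglial markers 5 rose, with a median of 1.33, and their summed level was 71.6 to 117.2 CPM in cKO libraries and 34.6 to 52.6 CPM in control libraries. Of 9 granule cell, 8 interneuron, 8 oligodendrocyte and 7 endothelial markers none passed the test in either direction, with medians of -0.12, -0.06, -0.30 and -0.07. Of 8 astrocyte and Bergmann glia markers 1 rose and 1 fell, with a median of -0.35. By the same test 3.85% of all genes tested were lower and 4.03% higher in cKO. Fewer Purkinje cells in the pull-down and less RNA per cell cannot be told apart in such samples, and the part of these shifts in the values below was not tested.

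The sequences that carry the splicing results are shown here, from GENCODE transcripts of mm10, 5' to 3' on the plus strand, the strand of all 10 genes. In Shank1 (chr7:44343658-44344574, introns left out) the capitals mark a coding exon of 24 bp between its neighbours. In Shank2 (chr7:144407121-144407232) the capitals mark the last 27 bp of a coding exon, which a donor inside that exon removes, and the short exon that follows at chr7:144408056-144408076 is given below it. In Dlgap4 the inner first exon ends with a start codon and the coding bases in capitals at chr2:156722072-156722102. In a later Dlgap4 exon (chr2:156761773-156761928) the capitals mark the 28 bp that an acceptor inside the exon removes.
Shank1 exon of 24 bp: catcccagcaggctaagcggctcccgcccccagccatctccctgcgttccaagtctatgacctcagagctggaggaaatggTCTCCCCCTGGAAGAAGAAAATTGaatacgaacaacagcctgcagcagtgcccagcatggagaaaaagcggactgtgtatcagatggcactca
Shank2 exon with an inner donor: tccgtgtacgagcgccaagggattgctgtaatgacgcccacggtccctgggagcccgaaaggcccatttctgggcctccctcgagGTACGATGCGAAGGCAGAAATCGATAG
Shank2 short exon: ACAGCAGAATCTTTCTATCAG
Dlgap4 coding end of the inner first exon: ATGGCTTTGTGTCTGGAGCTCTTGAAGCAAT
Dlgap4 exon with an inner acceptor: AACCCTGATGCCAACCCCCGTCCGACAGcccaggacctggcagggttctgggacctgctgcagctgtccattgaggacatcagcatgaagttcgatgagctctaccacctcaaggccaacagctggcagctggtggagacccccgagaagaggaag
The removed bases begin with GT in Shank2, as donors do, and end with AG in Dlgap4, as acceptors do.

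Shank2, Dlgap1 and Dlgap4 fell in cKO and no member rose, so 3 of 10 members were called. Over all 16067 genes tested, 7.87% were called in either direction, 3.85% lower and 4.03% higher in cKO. The median log2 fold change of the members was -0.37, beside 0.01 over all genes tested. The CPM of the groups did not overlap for 5 members, Shank1, Shank2, Dlg2, Dlgap1 and Dlgap4, all lower in cKO, against 13.4% of all genes lower in cKO without overlap. At an unadjusted p under 0.05 the same 5 members passed, beside 3550 of all 16067 genes tested in either direction. The 3 calls rested on single libraries: 1 member was called when any cKO library or control 1 was left out, 0 when control 2 was left out and 3 when control 3 was left out. GENCODE lists genes on the opposite strand within Shank1, Shank2, Shank3, Dlg1, Dlg2, Dlgap1 and Dlgap4, whose reads the gene counts may not separate.

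Shank1 and Shank2 were the most abundant members per length of merged exons. In cKO libraries the means were 181.1 RPKM (CPM per kilobase of exon) for Shank1, 64.7 for Shank2, 34.0 for Dlg2, 31.1 for Dlgap4, 21.5 for Dlgap1, 19.2 for Dlg4, 12.8 for Shank3, 8.64 for Dlg3, 5.47 for Dlg1 and 2.77 for Homer1. In control libraries the means were in the same order, with 237.1 RPKM for Shank1, 95.9 for Shank2, 47.0 for Dlg2, 41.8 for Dlgap4, 28.6 for Dlgap1, 21.6 for Dlg4, 16.3 for Shank3, 8.68 for Dlg3, 5.49 for Dlg1 and 2.86 for Homer1. The highest and the lowest control mean differed 82.8-fold. Among neighbours in this order, Dlg2 and Dlgap4 overlapped between libraries in both groups and Dlgap1 and Dlg4 overlapped in cKO, while all other neighbours were apart in each group. With the length of the longest coding transcript in place of merged exons, the mean over all 6 libraries moved to 84.4 RPKM for Dlg2 and to 42.7 RPKM for Dlg4. The levels thus depend on the length used, while the order from Dlg2 down to Homer1 stayed the same.

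**Figure D1:**
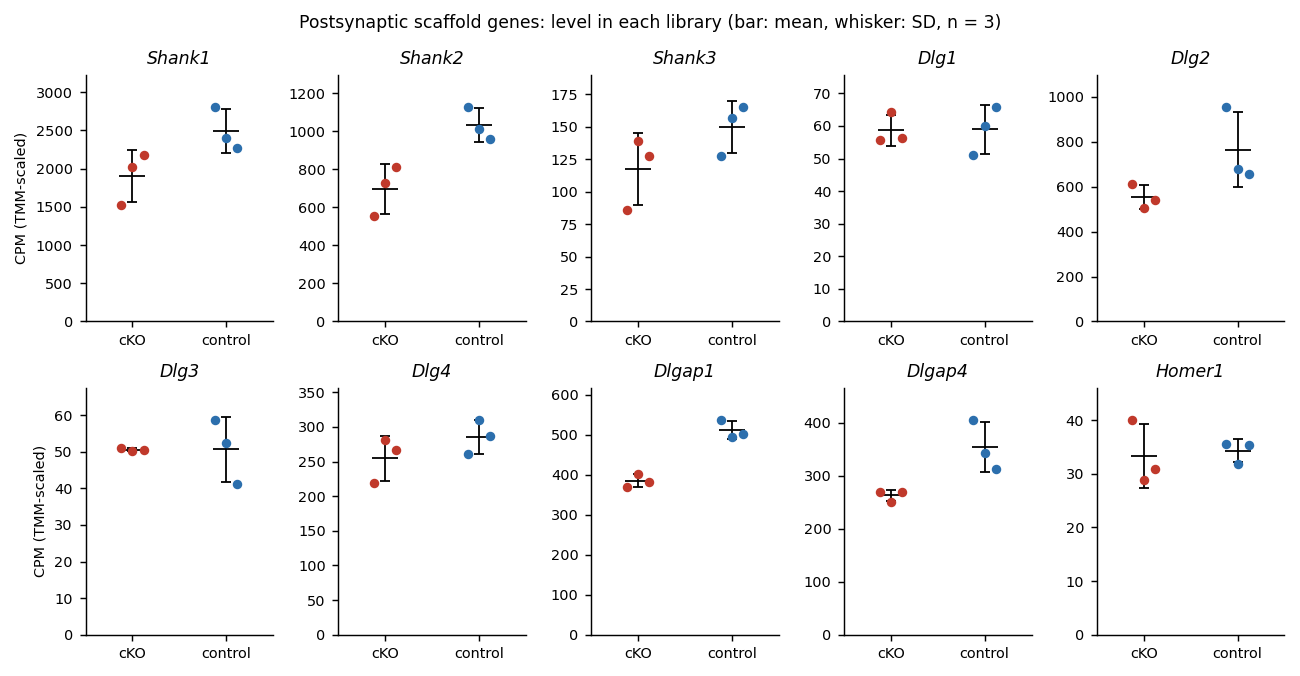
TMM-scaled CPM of the 10 scaffold genes in each library, cKO left and control right in every panel, with the group mean and SD (n = 3) and each vertical axis from 0. For Shank1, Shank2, Dlg2, Dlgap1 and Dlgap4 every cKO point lies below every control point, and the others overlap.

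Among the Shank genes, which form the deep lattice, Shank2 fell. It had 552.0, 727.6 and 810.4 CPM in cKO libraries, against 1129, 1010 and 958.6 CPM in control libraries, a log2 fold change of -0.57 (SE 0.13, adjusted p = 0.0304 in edgeR). The groups did not overlap, and the lowest library was cKO 1. The call was lost without cKO 1 (adjusted p = 0.0519), cKO 2 (0.0723), control 1 (0.0585) or control 2 (0.0878), with the same direction each time. Shank1 had 1523, 2016 and 2173 CPM in cKO libraries, against 2809, 2407 and 2264 CPM in control libraries. Its groups did not overlap either, but cKO 3 and control 3 lay close together, and the log2 fold change of -0.39 (SE 0.13) did not pass the edgeR test (adjusted p = 0.116). Shank3 ranged from 86.2 to 139.1 CPM in cKO and from 127.3 to 165.4 CPM in control libraries, with overlap and a log2 fold change of -0.35 (SE 0.17, adjusted p = 0.256 in edgeR).

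None of the Dlg genes passed the gene-level test. Dlg2, which encodes PSD-93, the relative of PSD-95 known for its high level in Purkinje neurons, had 614.4, 507.4 and 541.1 CPM in cKO libraries, against 956.4, 681.0 and 658.1 CPM in control libraries. The groups did not overlap and control 1 stood above the rest. The log2 fold change was -0.47 (SE 0.14, adjusted p = 0.0813 in edgeR). DESeq2 called Dlg2 (adjusted p = 0.0162) and Shank1 (adjusted p = 0.0367) as well, which makes 5 members. Dlg4, which encodes PSD-95, ranged from 218.4 to 280.5 CPM in cKO and from 261.1 to 309.9 CPM in control libraries, a log2 fold change of -0.16 (SE 0.11, adjusted p = 0.446). Dlg1, which encodes SAP97, ranged from 55.7 to 64.2 CPM in cKO and from 51.0 to 65.9 CPM in control libraries, and Dlg3, which encodes SAP102, from 50.2 to 50.9 CPM in cKO and from 41.1 to 58.7 CPM in control libraries. Their log2 fold changes were both -0.01 (SE 0.11 and 0.12), and the sign of both turned with the upper-quartile scaling.

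Both Dlgap genes fell. Dlgap1 had 370.2, 401.9 and 382.8 CPM in cKO libraries, against 536.8, 494.9 and 503.1 CPM in control libraries. The groups stood well apart and varied little within themselves, and the log2 fold change was -0.41 (SE 0.083, adjusted p = 0.0154 in edgeR). The call was lost without cKO 3 (adjusted p = 0.0895) or control 2 (0.0603). Dlgap4 had 268.2, 250.7 and 269.2 CPM in cKO libraries, against 404.8, 342.4 and 313.4 CPM in control libraries, a log2 fold change of -0.43 (SE 0.11, adjusted p = 0.0347 in edgeR). The call was lost when any library but control 3 was left out, with adjusted p between 0.0523 without control 1 and 0.118 without cKO 3. Homer1 ranged from 28.86 to 39.99 CPM in cKO and from 31.9 to 35.6 CPM in control libraries, a log2 fold change of -0.05 (SE 0.13, adjusted p = 0.888), whose sign turned without cKO 2 or cKO 3.

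Reads over annotated junctions gave a second measure of the level, which counts spliced reads only. In RPM, reads scaled to 1000000 junction reads of the library, Shank2 had 271.3, 351.9 and 426.2 in cKO libraries, against 504.1, 483.2 and 424.2 in control libraries, so that cKO 3 lay just above control 3. Dlgap1 had 288.2, 307.6 and 289.8 in cKO libraries, against 360.7, 347.8 and 343.3 in control libraries, and Dlgap4 had 283.1, 249.3 and 280.6 in cKO libraries, against 379.4, 339.8 and 313.7 in control libraries. Both Dlgap genes kept their groups apart. As log2 ratios of the group means these differences were -0.43, -0.25 and -0.35, beside a median of 0.08 over 9762 protein-coding genes with at least 1000 junction reads. In all 10 genes the log2 ratio of spliced reads lay above the log2 fold change of gene counts. The scaling differs between these measures, since RPM uses no TMM factor. The TMM factors of the gene counts were 1.015 to 1.097 in cKO and 0.929 to 0.990 in control libraries. Over all genes tested the median log2 fold change of gene counts was 0.01, below the 0.08 for spliced reads. How much of the gap in each gene comes from the scaling was not tested. The gap was widest in Shank3, with 0.02 for spliced reads and -0.35 for gene counts, and in Shank1, with -0.05 and -0.39. Homer1 had 0.20 for spliced reads and -0.05 for gene counts, and Dlg2 had -0.23 and -0.47. Along Shank2, 27 of 28 junctions with at least 100 reads had a ratio below 0 (median -0.41), along Dlgap1 20 of 22 and along Dlgap4 15 of 17. Along Homer1 0 of 9 did.

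**Figure D2:**
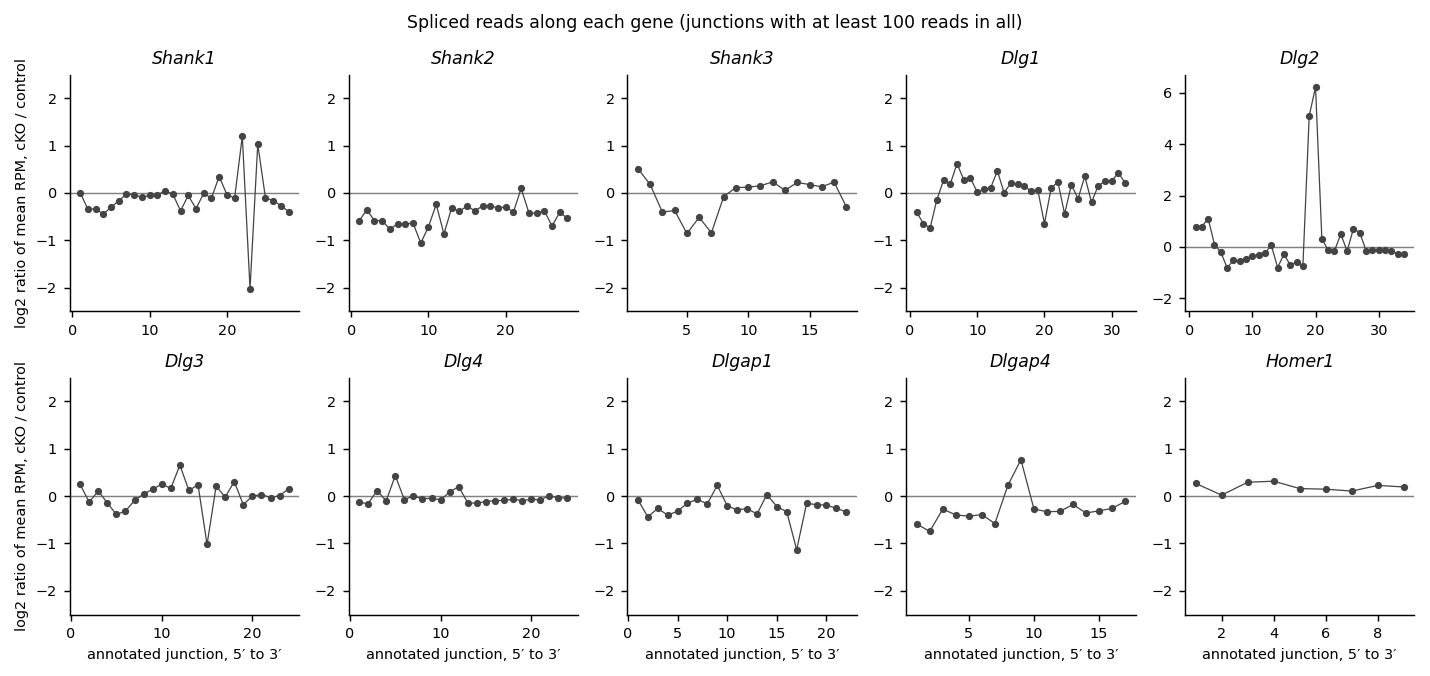
Log2 ratio of the mean junction RPM, cKO over control, for each annotated junction with at least 100 reads, ordered 5' to 3' within each gene; Dlg2 has its own vertical scale. Shank2 and the Dlgap genes lie below 0 along most of their length, Shank1 shows 1 junction at -2.02 between 2 raised ones, and Dlg2 shows its inner first exon at up to 6.21.

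In the junctions of the 10 genes, 873 were listed in at least 1 library and 354 could be tested against the other junctions of their cluster, which is a set joined by shared donors or acceptors. At an adjusted p under 0.05, 24 of these passed (6.78%), against 2.27% of all 112047 junctions tested. When the share within the cluster also had to change by 5 percentage points or more, 6 were called (1.69%), against 0.751% of all junctions tested. The 6 calls lay in Shank1 with 4, Dlg2 with 1 and Dlgap4 with 1. Those in Shank1 include the junctions into, out of and past the same exon, so the 6 calls are not separate events. Without cKO 1, 3 were called.

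The largest change was in Shank1, where the 24 bp exon printed above (chromosome 7, 44344298 to 44344321) was included far more often in cKO. Its inclusion, estimated from junction reads, was 86.2%, 84.2% and 82.7% in cKO libraries, against 36.3%, 37.9% and 39.4% in control libraries, or 84.4% ± 1.8 in cKO and 37.9% ± 1.5 in control (SD, n = 3 each). The junction that skips it (44343739 to 44344505) had 1576, 2193 and 2687 reads in cKO libraries, against 8944, 8718 and 7291 reads in control libraries (edgeR junction test, adjusted p = 2.7e-08). The junction into it had 9590, 11271 and 12514 reads in cKO libraries, against 4626, 4862 and 4345 reads in control libraries (adjusted p = 0.0048). The groups were far apart at both junctions, and every cKO library showed mostly inclusion where every control library showed mostly skipping. The junction out of the exon also rose (adjusted p = 0.0255), a call that was lost when any 1 library other than cKO 2 was left out (adjusted p between 0.0588 and 0.0877). The length is a multiple of 3, so the exon adds coding sequence without shifting the frame.

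No other annotated exon of the members differed by as much. Over 62 combinations of an annotated exon and a junction that skips it, inclusion did not overlap between groups in 14, against 22.6% of 17035 such combinations in all genes, which is close to the same share. Dlg2 included an exon of 156 bp (chromosome 7, 91997166 to 91997321) at 42.1%, 38.4% and 42.8% in cKO libraries, against 30.7%, 29.3% and 30.1% in control libraries. Dlg1 included an exon of 36 bp (chromosome 16, 31854653 to 31854688) at 54.2%, 55.4% and 53.7% in cKO libraries, against 62.6%, 62.4% and 64.2% in control libraries. The groups did not overlap in either, but no junction of these exons passed the junction test. A Dlg1 exon of 100 bp (chromosome 16, 31846834 to 31846933), seldom included, was at 6.10% ± 0.92 in cKO and 10.9% ± 0.25 in control (SD, n = 3 each), also without overlap and without a junction that passed. This estimate counts only the reads out to 31847635, which were 5, 14 and 2 in cKO and 7, 16 and 18 in control. It leaves out the reads to 31853842, which were 20, 32 and 20 in cKO and 30, 26 and 38 in control. Homer1, Dlg4 and Shank3 had overlapping inclusion at their best covered exon of intermediate inclusion (10 to 95%).

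**Figure D3:**
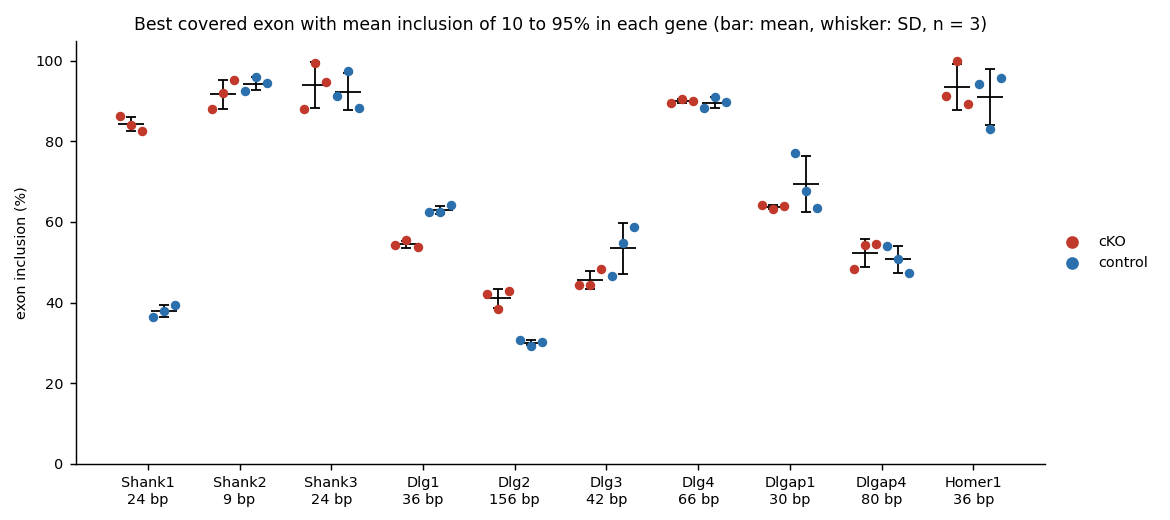
Inclusion in percent of 1 exon of each scaffold gene, in each library; of the exons with a mean inclusion of 10 to 95% it is the one with the most reads in its lowest library, cKO left and control right for each gene, with mean and SD (n = 3). The Shank1 exon of 24 bp lies above 80% in cKO and below 40% in control, Dlg2 is higher in cKO by about 11.1 points and Dlg1 is lower by about 8.6 points, while the other 7 genes overlap. For Shank2 and Dlgap4 the values leave out most reads out of the exon, so they are not its full inclusion. In cKO libraries the Shank2 value counts 0, 16 and 67 such reads and leaves out 1720, 1844 and 2733. The Dlgap4 value counts 36, 41 and 22 and leaves out 1259, 1007 and 1347.

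Shank1 also used an acceptor that GENCODE does not list, 25 bp upstream of an annotated acceptor near its 5' end (junction 44312962 to 44313093). It had 76, 86 and 168 reads in cKO libraries, against 7, 6 and 6 reads in control libraries, and took 6.72% ± 1.7 of the reads from its donor in cKO and 0.361% ± 0.064 in control (SD, n = 3 each; adjusted p = 1.2e-04). Each cKO library was above each control library. The added 25 bp is not a multiple of 3. A further unannotated Shank1 junction (44345018 to 44350595), chosen after its values were seen, had 386, 221 and 351 reads in cKO libraries, against 63, 67 and 77 reads in control libraries (adjusted p = 2.1e-05), at 2.52% of its cluster in cKO and 0.508% in control, below the minimum share change.

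In Dlg2 an inner first exon, which GENCODE lists for non-coding transcripts, was joined to a coding exon shared with the longer forms. The junction from its first donor (92181022 to 92286490), had 471, 219 and 324 reads in cKO libraries, against 6, 14 and 8 reads in control libraries. It took 22.5% ± 4.2 of the reads into that acceptor in cKO and 0.721% ± 0.36 in control (SD, n = 3 each; adjusted p = 1.0e-16). Its second donor, 31 bp further on, had 99, 31 and 30 reads in cKO libraries, against 0, 0 and 2 reads in control libraries (adjusted p = 3.3e-05). The inner first exon was thus read in every cKO library and close to absent in control libraries. The change in cluster share of the first donor was 5.01 points, just past the minimum of 5, and it was 4.43 points without cKO 1 and 4.97 points without control 1.

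The other junctions into the same Dlg2 exon were lower in cKO or overlapped between groups. The main upstream junction (92126643 to 92286490) had 8.10, 8.13 and 8.31 RPM in cKO libraries, against 18.1, 11.8 and 10.8 RPM in control libraries. The groups did not overlap, with control 1 the highest. A first exon further downstream, also of non-coding transcripts (92235225 to 92286490) averaged 5.26 ± 1.05 RPM in cKO and 4.22 ± 0.32 in control (SD, n = 3 each), with overlap. The junction out of the shared exon averaged 24.2 ± 2.4 RPM in cKO and 26.3 ± 5.9 in control, also with overlap. Upstream of the inner first exon, 8 of 17 annotated Dlg2 junctions were lower in cKO without overlap, with a median log2 ratio of -0.30. Downstream of the shared acceptor 0 of 13 were, with a median of -0.13. The share of such junctions over all genes was not determined, and the difference between the sides was not tested.

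Dlgap4 showed the same kind of arrangement with an exon that both groups used. The inner first exon, which carries the start codon printed above, joins the next exon by the junction 156722103 to 156745834. This junction had 474, 276 and 323 reads in cKO libraries, against 254, 154 and 185 reads in control libraries, and took 24.3% ± 5.5 of the reads into its acceptor in cKO and 11.5% ± 2.6 in control (SD, n = 3 each; adjusted p = 0.0068). The call was lost without cKO 1 (adjusted p = 0.155) or control 2 (0.0948). The main upstream junction (156711262 to 156745834) had 12.8, 13.5 and 13.5 RPM in cKO libraries, against 21.2, 20.5 and 17.9 RPM in control libraries, without overlap. In Dlgap4 the annotated junctions on both sides of the exon had log2 ratios below 0: all 6 upstream, with a median of -0.41, and all 8 downstream, with a median of -0.29. On each side 5 were lower in cKO without overlap, again with no share over all genes to set beside them.

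**Figure D4:**
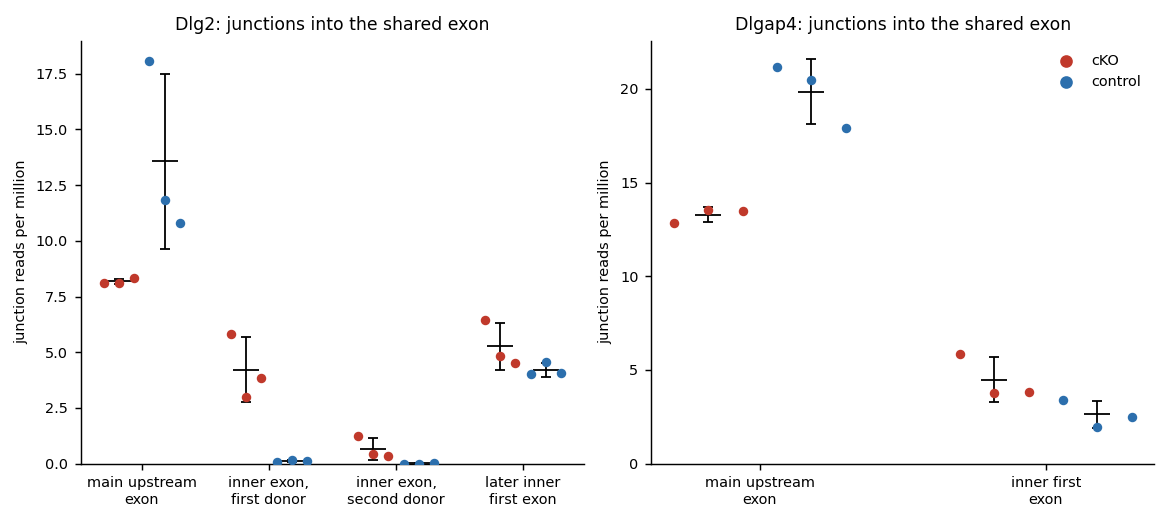
Junction RPM into the shared exon of Dlg2 (left) and of Dlgap4 (right), by the exon they come from, in each library, cKO left and control right at each position, with mean and SD (n = 3). Reads from the main upstream exon are lower in cKO in both genes, and the first donor of the Dlg2 inner exon averages 4.22 RPM in cKO and 0.123 in control.

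Junctions that GENCODE does not list were raised in cKO in 5 of the genes. Of 191 unannotated junctions tested, 18 had a higher share in cKO at an adjusted p under 0.05 and 0 had a lower one. Over all genes 3.51% of unannotated junctions were higher in cKO and 0.35% were lower by the same rule. Of the 605 listed, 311 (51.4%) were seen in cKO libraries only, 123 (20.3%) in control libraries only and 171 in both. Over the whole series the shares were close to these, with 48.3% of 226194 unannotated junctions in cKO libraries only and 25.4% in control libraries only, and each cKO library listed more junctions (244203 to 261315) than each control library (216219 to 221820). The 18 lay in Dlg2 with 7, Dlgap1 with 5, Shank1 with 3, Shank2 with 2 and Dlgap4 with 1. Shank3, Dlg1, Dlg3, Dlg4 and Homer1 had 0.

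As a share of all junction reads of the 10 genes, unannotated junctions made up 2.46%, 2.77% and 2.52% in cKO libraries, against 2.22%, 2.32% and 2.40% in control libraries. The groups did not overlap, and the difference of 0.266 points had an exact two-sided permutation p of 0.1, the smallest that 3 against 3 libraries allow. Over all junctions of the series the share was 2.13%, 2.03% and 2.04% in cKO libraries, against 1.52%, 1.98% and 1.69% in control libraries. Gene by gene the share was higher in cKO without overlap in 3 members and lower in 0, against 23.9% and 2.38% of 9762 protein-coding genes. In Dlgap1 it averaged 6.91% in cKO and 3.95% in control, in Dlg2 1.93% in cKO and 0.628% in control, and in Dlg1 0.475% in cKO and 0.220% in control.

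Among unannotated junctions with at least 5 times as many cKO as control reads, the one with the most cKO reads led into an unannotated exon of Dlgap1. The exon has 225 bp (chromosome 17, 70625975 to 70626199), a multiple of 3. The junction into it had 341, 229 and 250 reads in cKO libraries, against 5, 8 and 3 reads in control libraries (adjusted p = 1.8e-15), and the junction out of it had 124, 101 and 77 reads in cKO libraries, against 0, 1 and 0 reads in control libraries (adjusted p = 6.3e-09). Its inclusion was 8.44%, 6.67% and 6.00% in cKO libraries, against 0.093%, 0.153% and 0.051% in control libraries. The exon was present in every cKO library and close to 0 in every control library. The junction into it took 9.20% ± 1.8 of the reads from its donor in cKO and 0.179% ± 0.084 in control (SD, n = 3 each), but its change in cluster share was 4.32 points, under the minimum. A second junction from the same donor (70593382 to 70608389), chosen after its values were seen, had 81, 133 and 143 reads in cKO libraries, against 30, 20 and 25 reads in control libraries (adjusted p = 0.0089).

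Dlg2 held 3 unannotated exons, each with 0 reads in every control library. They were an exon of 55 bp (chromosome 7, 92300246 to 92300300), one of 125 bp (92332027 to 92332151) and one of 165 bp (92439176 to 92439340), and only the last is a multiple of 3. The first and the next lie in the intron after the shared exon, and their inclusion averaged 1.27% ± 0.48 and 1.27% ± 0.13 in cKO (SD, n = 3 each). The junction into the exon of 55 bp had 39, 29 and 16 reads in cKO libraries (adjusted p = 9.1e-04), and that into the exon of 125 bp had 26, 11 and 32 (adjusted p = 0.0046). The exon of 165 bp had 81, 13 and 20 reads into it and 58, 10 and 21 out of it in cKO libraries (adjusted p = 8.1e-04 and 0.0028), so cKO 1 held most of them. Without cKO 1 the adjusted p values of its junctions were 0.0542 and 0.0690. A count of 0 among the skipping reads of a control library allows an inclusion of up to 0.122% to 0.185% for the exons of 55 and 125 bp and of up to 0.091% to 0.119% for the exon of 165 bp (3 counts per library, counting error only).

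In Shank2 the raised junctions were chosen after their values were seen, and 0 were called, since their changes in cluster share were below the minimum. The donor that lies 27 bp before the end of the exon printed above joined the exon after next (144407206 to 144409461) with 124, 168 and 175 reads in cKO libraries, against 62, 68 and 51 reads in control libraries (adjusted p = 0.0230). Every cKO library was above every control library. Reads from that donor into the exon of 21 bp were 214, 271 and 369 in cKO, against 197, 254 and 199 in control. Averaged with the reads out of the exon of 21 bp, they gave inclusion of 72.6%, 73.1% and 77.8% in cKO libraries. In control libraries they gave 88.8%, 89.4% and 90.4%. Transcripts from both donors share the reads out, so these values lie above the inclusion from that donor alone. From the annotated donor of the printed exon, with the same reads out, the value was 99.6% ± 0.39 in cKO and 98.9% ± 1.0 in control (SD, n = 3 each), with overlap. Near the 5' end of Shank2 the junction 144006813 to 144031250 had 25, 27 and 22 reads in cKO libraries, against 0, 3 and 0 reads in control libraries (adjusted p = 0.0360).

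Dlgap4 used an acceptor 28 bp inside a coding exon, whose removed bases are printed above (156760943 to 156761800). It had 51, 27 and 47 reads in cKO libraries, against 1, 0 and 1 reads in control libraries, or 1.32% ± 0.21 of the reads from its donor in cKO and 0.019% ± 0.017 in control (SD, n = 3 each; adjusted p = 8.0e-04). The removed 28 bp is not a multiple of 3. Another unannotated Dlgap4 junction (156664984 to 156695279) had 21, 24 and 49 reads in cKO libraries, against 7, 7 and 3 reads in control libraries, and did not pass the test (adjusted p = 0.157). The Dlg2 junction 92126643 to 92134256 had 21, 43 and 30 reads in cKO libraries, against 0, 4 and 1 reads in control libraries (adjusted p = 0.0310), a result lost without cKO 2, cKO 3, control 1 or control 3 (adjusted p between 0.0711 and 0.208). The Shank1 junction 44344322 to 44344898 had 35, 27 and 88 reads in cKO libraries, against 20, 0 and 2 reads in control libraries (adjusted p = 0.215, and 0.0260 without control 1).

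**Figure D5:**
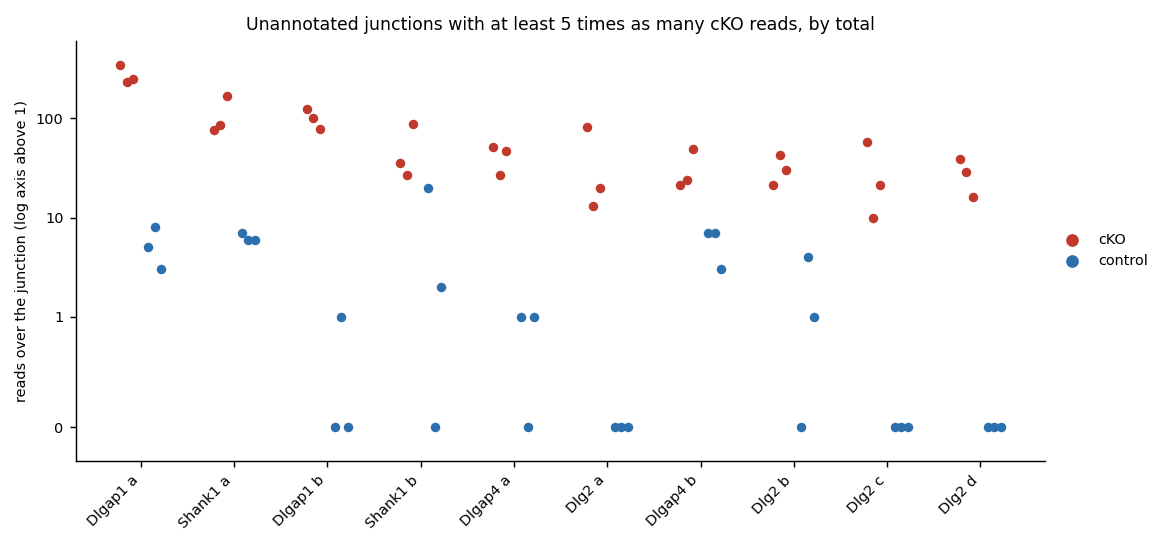
Reads over the 10 unannotated junctions of the scaffold genes with the most cKO reads among those with at least 5 times as many cKO as control reads, in each library, on an axis that is logarithmic above 1; letters tell junctions of a gene apart. Dlgap1 a and b lead into and out of the exon of 225 bp, Shank1 a is the acceptor 25 bp upstream of an exon, Dlgap4 a is the acceptor inside an exon, and for Dlg2 a, c and d every control library is at 0.

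Of the 5 unannotated junctions with the most reads among those with at least 5 times as many control as cKO reads, 4 were tested and 0 passed. The first, in Shank1 (44356882 to 44356961, an intron of 80 bp), had 0, 0 and 0 reads in cKO libraries, against 571, 0 and 494 reads in control libraries, and could not be tested because no other junction shares its ends. The next, in Dlg2 (91997226 to 92040797), had 2, 0 and 0 reads in cKO libraries, against 19, 0 and 11 reads in control libraries (adjusted p = 0.608). Both were absent from control 2. One in Dlgap4 (156639814 to 156664798) had 0, 0 and 1 reads in cKO libraries, against 6, 16 and 7 reads in control libraries (adjusted p = 0.336), and one in Shank3 (89549883 to 89557960) had 2, 0 and 2 reads in cKO libraries, against 10, 6 and 5 reads in control libraries (adjusted p = 1.00). One more in Shank1 (44342181 to 44343044) had 0, 0 and 0 reads in cKO libraries, against 0, 5 and 13 reads in control libraries (adjusted p = 0.269).

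Among the partners of these scaffolds, 8 of 57 listed genes that passed the filter fell in cKO and 0 rose. Over all genes tested, 3.85% were called lower and 4.03% higher in cKO. The median log2 fold change of the partners was -0.18, beside 0.01 over all genes tested. The other members of the same families (Dlgap2, Dlgap3, Homer2, Homer3 and Dlg5) gave 0 calls in 5. Homer3, the main Homer protein of Purkinje neurons, averaged 131.5 ± 20.02 CPM in cKO and 179.6 ± 21.2 CPM in control (SD, n = 3 each), without overlap, and did not pass (log2 fold change -0.45, adjusted p = 0.0608 in edgeR). At an unadjusted p under 0.05, 3 of the 5 passed: Homer3 and Homer2 (log2 fold change -0.39) and, in the other direction, Dlgap2 (0.55). Over all 16067 genes tested, 3550 passed that threshold in either direction.

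Scaffolds of receptors and adhesion proteins fell in 3 of 18 cases. Anks1b, a synaptic protein with ankyrin repeats, averaged 392.5 ± 3.9 CPM in cKO and 988.5 ± 221.2 CPM in control (SD, n = 3 each), a log2 fold change of -1.33 (adjusted p = 5.5e-04 in edgeR). Lin7b, a small PDZ protein of the Cask complex, had a log2 fold change of -0.91 (adjusted p = 0.0078). Frmpd4, which binds Dlg4 and Homer, had a log2 fold change of -0.43 (adjusted p = 0.0294). Lin7a, Lin7c and Cript, the further listed genes with the highest level, had log2 fold changes of -0.24, 0.19 and -0.03 and did not pass. Of 19 listed enzymes and regulators bound by the scaffolds 1 fell, Camk2a, a subunit of the calcium and calmodulin kinase (log2 fold change -0.61, adjusted p = 0.0314), while Camk2b had -0.21, Iqsec1 -0.09 and Baiap2 -0.25 without passing. For both lists, the share to set beside these counts is the 3.85% of all genes tested that were called lower in cKO.

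Of the listed glutamate receptors and calcium store channels tied by these scaffolds, Itpr1, the IP3 receptor, had a log2 fold change of -0.64 and did not pass (adjusted p = 0.0552 in edgeR), and Grin1 and Grin2c had -0.20 and -0.15. Itpr1 also stands among the Purkinje markers given above. Of the listed scaffold genes of inhibitory synapses Dmd, which encodes dystrophin, fell (log2 fold change -1.19, adjusted p = 6.9e-04), while Dag1, Gphn and Lhfpl4 had -0.11, -0.16 and 0.01 without passing. The number of calls over the 5 lists was 5 without cKO 3 or control 2. Camk2a and Frmpd4 lost their calls when any 1 cKO library or control 2 was left out.

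The genes whose log CPM over the 6 libraries was most like the mean standardised profile of the 10 scaffold genes were Ube2n (Pearson r = 0.999), Spsb1 (0.998), Cox14 (0.998), Amica1 (0.998) and Pcp4 (0.998). These values describe 6 libraries that share the split between cKO and control, and carry no test. Pcp4, a calmodulin-binding protein abundant in Purkinje neurons, averaged 3892 ± 281.6 CPM in cKO and 5544 ± 463.2 CPM in control (SD, n = 3 each). The profile was lowest in cKO 1 and highest in control 1, with standardised means of -0.79 and 0.70.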

How the data were processed

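TopHat2 2.1.0, HTSeq 0.6.0 and the build mm10 stand in the submitters' processing notes. What annotation and strand setting lay behind the gene counts was not given in the sources used here. Thus antisense and overlapping genes inside these loci cannot be separated. Per the labels' protocols, cDNA was amplified from 10 ng of RNA with a NuGEN kit, so reads are not independent molecules. The authors deposited 1 table of raw gene counts and, per the file headers, a TopHat list for each library whose score is the count of reads over a junction.

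Genes were tested with edgeR 4.0.16 (R 4.3.3; filterByExpr, TMM, quasi-likelihood), with Benjamini-Hochberg adjustment over 16067 genes and a threshold of 0.05. RPKM uses merged GENCODE exon length. Junctions with at least 10 reads in all, in at least 2 libraries, were tested within 29112 clusters with diffSpliceDGE on the whole table, and a call needed 5 points of share change. Inclusion divides the mean reads of the junctions into and out of an exon by that mean plus the skipping reads. Only the junctions that share an end with the skipping junction count. Reads that join the exon to other sites are thus left out, and reads shared with other forms are kept. Junction coordinates are the first and last intron base, 1-based, in mm10. Scripts were tested on simulated data. Each library is a separate pull-down, and p-values measure the spread between them.

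The members and lists were chosen with earlier results of these data known. Named were all members; from each list up to 4 called genes (or the 2 highest) and up to 3 further genes by level; every called junction; and the 10 (cKO) and 5 (control) unannotated junctions with the most reads among those with 5 times as many reads in that group. Some items that this rule names are not reported here. Alternatives were RLE and upper-quartile scaling, other filters, DESeq2 1.42.0, limma-voom, a block for the replicate number, leaving out each library, other junction minimums and other lengths.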

Additional observations from a re-analysis of the deposited data

How the results depend on the processing

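Of 16067 genes, 1265 were called with edgeR and 2042 with DESeq2, and 530 to 1037 when 1 library was left out. Of the 10 scaffold genes 3 were called, 5 with DESeq2 and 0 to 3 when 1 library was left out; of the listed partners 8 were called, and 5 to 9 when 1 library was left out. With the replicate number as a block 5 scaffold genes were called, Dlg2 and Shank3 in addition (adjusted p = 0.0126 and 0.0264), and 1734 genes in all; same-numbered libraries deviated together with correlations of 0.04, -0.06 and 0.02, so the numbers were not taken to pair them. Of all junctions 842 were called, 436 with a minimum of 10 points, 2539 with none, 565 to 764 when 1 library was left out, and 1324 with the share of reads at the same donor or acceptor, an alternative chosen after seeing the data. Of the scaffold junctions 6 were called, 24 with no minimum, 9 by that added alternative and 3 to 6 when 1 library was left out. With the longest coding transcript as length, the means over 6 libraries moved to 18.2 RPKM for Shank3, 9.57 for Dlg1, 84.4 for Dlg2, 10.2 for Dlg3, 42.7 for Dlg4, 62.5 for Dlgap1, 63.5 for Dlgap4 and 5.91 for Homer1, a change that follows from the length alone. The sign of the log2 fold change turned for Dlg1 with upper-quartile scaling (0.012), the filter of 50 counts (8.5e-04) and without cKO 1, cKO 3 or control 3 (-0.10 to 0.062 over the libraries left out), for Dlg3 with upper-quartile scaling (0.014), the filter of 50 counts (0.0019), limma-voom (0.011), the block (0.0097) and without control 1 (-0.16 to 0.11), and for Homer1 without cKO 2 or cKO 3 (-0.20 to 0.045); none of these values was called and the cause was not tested. The other 7 scaffold genes kept a negative log2 fold change under all 13 alternatives. The difference in unannotated share was 0.174 to 0.328 points when 1 library was left out.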
